A study of Mus musculus with 59 samples.

Results

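Cytosolic ribosomal protein genes encode the proteins of the ribosome that translates nuclear messages. Here they were taken as all genes whose single array symbol begins with Rpl or Rps and a digit, or with Rplp. The S6 kinases (Rps6k), Rps19bp1 and symbols containing "-ps" were left out, and 1 probe set was kept for each gene, that with the highest mean signal. This gave 48 genes of 18194 on the array, 26 of the large subunit (Rpl and Rplp) and 22 of the small subunit (Rps). The rule uses symbols and mean signal and no measured difference, but it was set with earlier results of these data known. The set is a part of the ribosome: 87 coding symbols of this form stand in the RefSeq gene table, 47 of them are among the 48, and 31 of the other 40 are named on the array only on probe sets they share with other symbols. Rplp1, Rpl3, Rpl5, Rpl10 and Rpl36a are of that kind.

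The study measured mouse brain after prenatal exposure, on 59 arrays of the Affymetrix Mouse Genome 430 2.0 type in 19 groups. By mouth, C57BL/6 dams received daily doses from E12.5 to E14.5 of 300 mg/kg valproic acid (VPA), 300 mg/kg valpromide (VPM) or of the vehicle, 0.5% methylcellulose (MC). VPA is an antiepileptic drug that also inhibits histone deacetylases, and VPM is its amide, in which the acid group is replaced. Telencephalon of VPA, VPM and MC embryos was taken 3 h after the final dose, at E14.5, and at E18.5 hippocampus and forebrain from the same 3 treatments. Male offspring aged 12 to 13 weeks gave hippocampus and cortex in 4 groups: VPA with a running wheel (VPA+RW) and VPA, MC with a running wheel (MC+RW) and MC. A separate set of males at postnatal day 84 (P84) gave hippocampus from VPA and MC offspring. Each group had 3 arrays, and the P84 groups had 4. All animals carried the same strain background, and every offspring, MC included, came from a dam dosed on those days. The labels do not name the litter of any sample, so the p-values measure the spread between these samples, some of which may share a dam.

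Arrays differed in overall brightness, with trimmed means of 197.6 to 419.4 as deposited, and 18.2 to 38.0% of probe sets lay at or under the floor of 32 after scaling. No pair of arrays held identical values, and within-group correlations were 0.978 to 0.995. The ratio of 3′ to 5′ probe signal was 1.03 to 1.39 for Actb and 0.724 to 0.822 for Gapdh. The telencephalon markers were present on every E14.5 array, at a summed signal of 5802 to 6754 in VPA, 5791 to 6901 in VPM and 7734 to 8244 in MC embryos. The adult regions also carried their own markers: the hippocampal list summed to 14126 to 15719 in adult MC hippocampus and to 6566 to 7090 in adult MC cortex. All values below are signals scaled to a common trimmed mean of 500, and each log2 difference comes from limma with Benjamini-Hochberg adjustment over all genes tested, at a threshold of 0.05.

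A ribosome holds a single copy of nearly every ribosomal protein, so its genes are known to be expressed together and strongly in growing and dividing cells. Their messages begin with a C followed by a run of pyrimidines, the 5′ terminal oligopyrimidine (TOP) motif, through which the mTORC1 kinase pathway controls their translation. In the embryonic brain, dividing progenitors make many ribosomes, and neurons need them for growth of axons and dendrites. Mutations of single ribosomal protein genes are known to cause Diamond-Blackfan anaemia in humans. Free Rpl5 and Rpl11 bind Mdm2, the inhibitor of p53, when ribosome assembly is disturbed.

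The start of the transcript is a feature these genes are known to have in common, and it was not used in choosing them. Annotated RefSeq starts (GRCm38.p6) were at hand for 42 of the 48 genes. Each line gives 30 bases, 10 before the annotated start and 20 from it, with the start base and the pyrimidines that follow it in capitals where the start base is C. The first 4 carry a TOP-like run and belong to genes described below. The last 4 are among the genes with the largest falls or with a drug difference. They have no such run at the annotated start base itself (for Rps27l, 1 of 2 annotated starts). The lines were picked after values were seen and do not split the genes by their changes. Of the first 4, Rps6 was also called between the drugs, and Rpl35 was also among the largest falls.
Rps6, chr4:86857348-86857377, minus strand: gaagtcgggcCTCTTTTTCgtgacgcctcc
Rpl35, chr2:39005112-39005141, minus strand: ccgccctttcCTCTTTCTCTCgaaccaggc
Rps18, chr17:33955646-33955675, minus strand: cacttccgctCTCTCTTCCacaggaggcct
Rplp2, chr7:141447641-141447670, plus strand: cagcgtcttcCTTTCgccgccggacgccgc
Rplp0, chr5:115559457-115559486, plus strand: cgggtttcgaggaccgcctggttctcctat
Rps9, chr7:3704031-3704060, plus strand: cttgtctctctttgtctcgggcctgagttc
Rpl7l1, chr17:46782637-46782666, minus strand: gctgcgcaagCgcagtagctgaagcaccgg
Rps27l, chr9:66946076-66946105, plus strand: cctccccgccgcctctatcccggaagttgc

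A C at the annotated start followed by at least 4 pyrimidines was found in 8 of the 42 genes, against 2.98% of 26983 other genes in the promoter table. Allowing the run to begin within 5 bases of the annotated start raised this to 20 of 42 (47.6%), against 21.1% of the others, and then took in Rps9 and Rps27l but not Rplp0 or Rpl7l1. An annotated start can lie some bases from the true one, so a missing run says only that these letters are not there. The GABP motif CCGGAAGT, searched on both strands from 100 bases before to 50 after the start, occurred in 8 of 42 genes, against 3.44% of the other genes. The YY1 motif AAGATGGC occurred in 3 (7.14%), against 2.02%, the Sp1 box GGGCGG in 18 (42.9%), against 31.5%, and TATAAA in 5 (11.9%), against 8.08%. These are counts of letters, not of bound sites.

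The genes were among the brightest on the array. Their median percentile of mean signal among all probe sets was 99.5, and 34 of 48 stood above the 95th percentile. The brightest of them reached 82.7 to 100% of the maximum on its array. Of the 48, 45 passed the filter on low signals (at least 100 on 3 arrays, or 4 at P84) and 3 stayed under 100 on all 59 arrays. These 3 were Rpl3l, a paralog known from muscle, Rpl39l, a paralog known from testis, and Rps16 on its only single-symbol probe set. In the group means of the array median over the genes, the signal was high in embryos and low in adults. At E14.5 it was 17663 ± 1338 in VPA, 17376 ± 345 in VPM and 17683 ± 966 in MC telencephalon (SD, n = 3 each). In the E18.5 hippocampus it was 14642 ± 650 in VPA, 16194 ± 854 in VPM and 15938 ± 528 in MC samples, and in the E18.5 forebrain 13665 ± 742, 13644 ± 323 and 14021 ± 891 in the same order of treatments. In adult MC mice it was 5715 ± 441 in cortex, 5938 ± 140 in hippocampus (n = 3 each) and 6575 ± 477 in P84 hippocampus (n = 4).

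**Figure D1:**
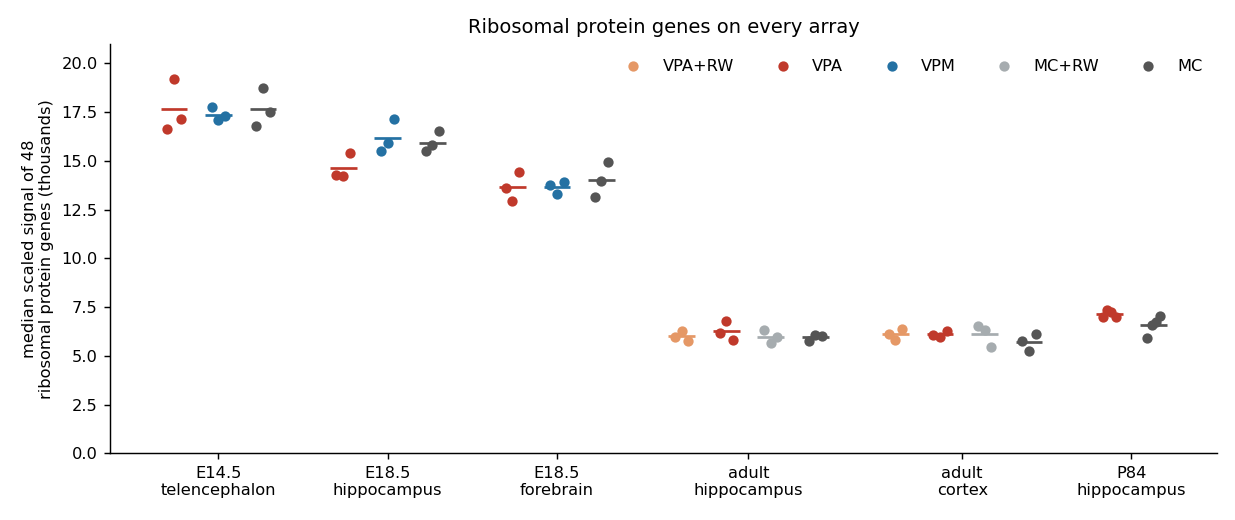
Median scaled signal of the 48 ribosomal protein genes on each of the 59 arrays, divided by 1000 on a linear axis from 0 (points, arrays; short lines, group means). All embryonic arrays lie well above all adult arrays, and within each tissue and age the treatment groups lie close together. In E18.5 hippocampus every VPA array (up to 15392) lies under every MC (from 15497) and VPM (from 15520) array.

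At E14.5 the ribosomal protein messages differed little between treatments while many other genes changed. VPA changed 53.8% of 11068 genes tested against MC (27% rose, 26.8% fell). Of the 45 ribosomal protein genes tested none rose and 1 fell, and 3 had an unadjusted p under 0.05. Quantile normalization called 3 up and 1 down, and the replicate block and the mean over a gene's probe sets 1 up and 2 down each. Their median log2 difference was 0.00, the same as over all genes, but their interquartile range was 0.09 against 0.56 for all genes. For 34 of the 45 the 95% interval of the difference lay wholly within 1.2-fold in either direction, and for 44 within 1.5-fold. Over all genes these shares were 13.4% and 56.1%.

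Brightness alone narrows an interval. The 34 genes above the 95th percentile of signal among all probe sets were therefore set beside the 1259 other genes above it. This comparison was chosen after the data had been seen. None of the 34 was called, against 49% of the other bright genes, of which 337 rose and 280 fell. The interval lay within 1.2-fold for 32 of the 34, and for 35.0% of the other bright genes. The 2 sets were not matched in brightness: the dimmest of the 34, Rpl22l1, stood at percentile 98.2, while the others were taken from the 95th up. The part of compression near the top of the signal range in these small differences was not tested. The probe sets not chosen gave a like picture: of 43 other single-symbol probe sets for these genes 2 rose and 2 fell, and of 98 probe sets shared with other symbols 1 rose and 3 fell, against 23.8% up and 24.5% down over all probe sets.

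**Figure D2:**
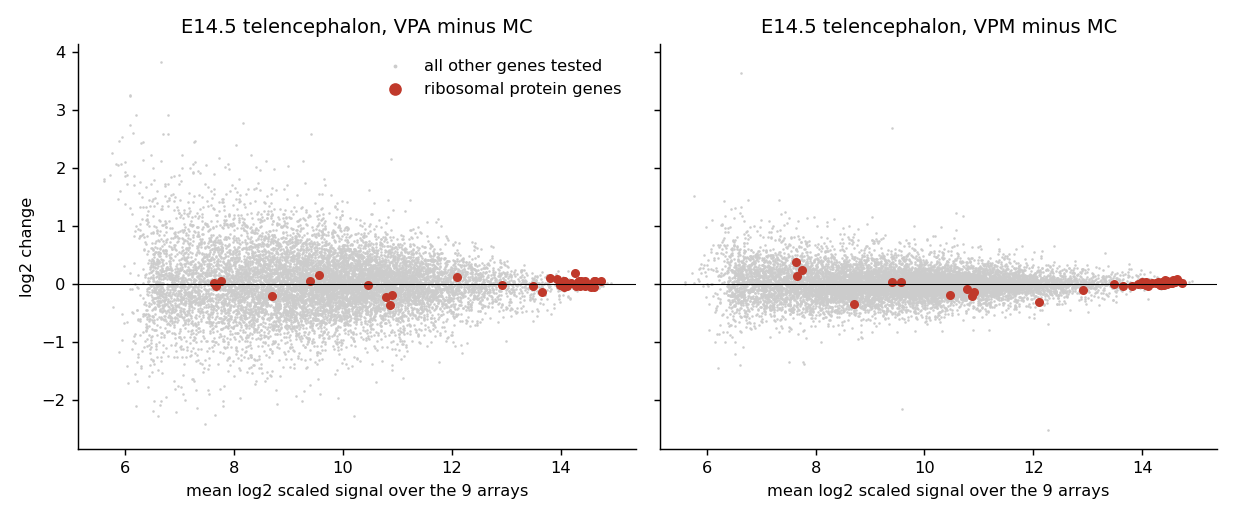
Log2 change at E14.5 (y) against mean log2 scaled signal over the 9 arrays (x) for all genes tested, VPA minus MC on the left and VPM minus MC on the right, with the ribosomal protein genes in red. In the left panel the other genes (grey) spread widely on both sides of 0, while most ribosomal protein genes lie close to 0 at the bright end.

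The large-subunit stalk, which recruits elongation factors, showed no difference that passed the test. Rplp0, the protein at its base, gave signals of 21002, 23077 and 21685 in VPA, 23277, 21942 and 22485 in VPM and 20537, 24582 and 22759 in MC embryos. The 3 groups overlapped, and VPA minus MC was -0.04 on the log2 scale with a 95% interval of -0.19 to 0.10 (adjusted p = 0.605, limma). For Rplp2, the other stalk protein measured, VPA minus MC was 0.05 (interval -0.11 to 0.21). Rps14, Rps19 and Rpl11, whose human counterparts are known from inherited or acquired anaemias, had VPA minus MC of 0.00, 0.03 and -0.03, with intervals of -0.14 to 0.13, -0.22 to 0.29 and -0.21 to 0.15.

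The gene that fell under VPA was Rpl7l1, a paralog of Rpl7. Its signals were 1587, 1683 and 1721 in VPA, 1912, 1820 and 1815 in VPM and 2138, 2155 and 2093 in MC embryos. The 3 groups did not overlap, with VPA lowest, VPM between and MC highest. VPA minus MC was -0.36 (SE 0.06, adjusted p = 0.00026, limma), and this call held in each of the alternatives run and on leaving out any of the 6 arrays. VPM minus MC was -0.20 (SE 0.06, adjusted p = 0.0389), and VPA minus VPM was -0.15 (SE 0.06, adjusted p = 0.0385). The VPM difference from MC lost its call on leaving out any 1 of the 6 arrays (adjusted p 0.0539 to 0.12) and in 5 of 8 other settings (up to 0.293). The difference between the drugs lost it on leaving out 5 of the 6 (0.0427 to 0.13). A second probe set of Rpl7l1 gave -0.19 for VPA minus MC (adjusted p = 0.046 over all probe sets) and a dimmer one -0.05 (0.779). Rpl7 itself gave -0.04 (interval -0.14 to 0.07).

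Rps27l, a paralog of Rps27 whose human counterpart is known as a p53 target, separated the drugs. Its signals were 4844, 4853 and 5188 in VPA, 3805, 3579 and 3688 in VPM and 4194, 5129 and 4496 in MC embryos. Every VPM array lay under every VPA and MC array, and the VPA and MC arrays overlapped. VPA minus VPM was 0.43 (SE 0.07, adjusted p = 0.000327, limma) and held in all alternatives and with any array left out. VPM minus MC was -0.32 (SE 0.07, adjusted p = 0.0155). It lost its call without the third VPM array (-0.31, adjusted p = 0.0556), with the values as deposited (-0.36, 0.0757) and without the filter on low values (-0.32, 0.0736). VPA minus MC was 0.11 with an interval of -0.04 to 0.27 (adjusted p = 0.206). The other 2 probe sets of Rps27l gave 0.50 and 0.57 for VPA minus VPM, and -0.33 and -0.39 for VPM minus MC. Rps27, on a dim probe set, gave VPA minus VPM of -0.18 (interval -0.46 to 0.11).

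Against MC, VPM changed 11.6% of genes (5.65% rose, 5.91% fell), and among the 45 ribosomal protein genes none rose and 2 fell, Rpl7l1 and Rps27l. Their median difference was 0.01, and 35 of 45 intervals lay within 1.2-fold, against 27.4% of all genes. Between the drugs at the same dose and time, 54.5% of genes differed (27.5% higher and 27% lower in VPA). Of the 45 ribosomal protein genes, 2 were higher in VPA (Rps27l and Rps6) and 2 lower (Rpl12 and Rpl7l1). The 45 pairs of values are part of the 11068 over which p was adjusted. For 33 of the 45 the interval of VPA minus VPM lay within 1.2-fold, and for 43 within 1.5-fold. VPA and VPM differ by the acid group in place of the amide.

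Rps6, the small-subunit protein phosphorylated by S6 kinase, gave 1417, 1495 and 1495 in VPA, 1332, 1313 and 1256 in VPM and 1429, 1612 and 1436 in MC embryos. VPM was lowest throughout, and VPA minus VPM was 0.18 (SE 0.07, adjusted p = 0.0409), a call lost on leaving out 5 of the 6 arrays (adjusted p 0.0441 to 0.117). Rpl12, at the foot of the stalk, was measured on a dim probe set, at 186, 188 and 178 in VPA, 227, 259 and 221 in VPM and 198, 159 and 188 in MC embryos. VPM was highest, and VPA minus VPM was -0.35 (SE 0.13, adjusted p = 0.0367), again lost on leaving out 5 of 6 arrays (0.0462 to 0.131). A brighter Rpl12 probe set, shared with the pseudogene Gm11425, gave 0.12 for VPA minus VPM (adjusted p = 0.255). The brightest probe sets shared by Rps6 and its pseudogene Rps6-ps4 gave 0.02 and 0.03.

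**Figure D3:**
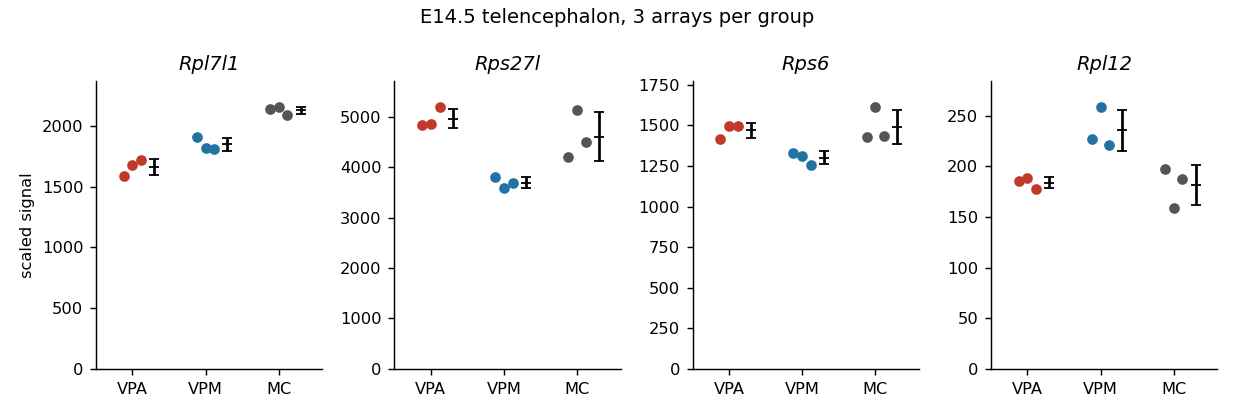
Scaled signal of Rpl7l1, Rps27l, Rps6 and Rpl12 on each E14.5 array (points; bars to their right, mean ± SD, n = 3), with VPA, VPM and MC from left to right on axes from 0. Rpl7l1 is lowest in VPA, Rps27l and Rps6 are lowest in VPM, and Rpl12 is highest in VPM.

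Lists of related genes are read against the 27% of all genes that rose under VPA and the 26.8% that fell. Of 76 mitochondrial ribosomal protein genes, which serve the separate ribosome of mitochondria, 11 rose and 35 fell, with a median of -0.17. Mrpl54 fell by 1.27, Mrpl27 by 1.14 and Mrpl45 by 1.04 on the log2 scale. Of 35 ribosome biogenesis genes 8 rose and 13 fell, among them Utp20 (-1.46) of the pre-rRNA processing machinery, Ubtf (-0.89), the RNA polymerase I factor, and nucleolin, Ncl (-0.47). Of 31 translation factors 6 rose and 6 fell, with Eif6, which keeps the subunits apart, up by 0.62 and the helicase Eif4a1 at -0.22. Of 23 regulators of mTORC1 and Myc 11 rose and 7 fell, led by Sesn2, a stress-induced inhibitor of mTORC1, at 3.83. Rpsa and Fau, ribosomal proteins whose symbols fall outside the rule, gave -0.02 and 0.09 and neither passed. Counts under VPM are read instead against the smaller shares of all genes given above for VPM against MC. Under VPM none of the biogenesis genes rose and 4 fell, Dkc1 (-0.35), Polr1b (-0.44) and Gar1 (-0.25) among them. Of the mitochondrial list none rose and 2 fell, and of the regulators none was called.

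Other cell types moved with the treatments at E14.5. The 7 markers of cycling cells summed to 13221 to 14543 in VPA, 15048 to 17034 in VPM and 20452 to 21175 in MC embryos. The 7 radial glia markers summed to 41396 to 42781, 40908 to 43918 and 47320 to 50118 in that order, and the 5 red cell genes to 6533 to 9976, 2544 to 3166 and 10932 to 12902. The 7 choroid plexus genes reached 20403 on the third VPM array and 232 to 420 on the other 8 arrays, and 3 of the 7 were at the floor on all VPA and all MC arrays. The 7 neuron markers summed to 49887 to 50310 in VPA, 60929 to 64702 in VPM and 53311 to 53550 in MC embryos. The 5 endothelium markers summed to 1418 to 1529, 2132 to 2480 and 1907 to 2146 in the same order. Further lists, such as astrocytes, also separated VPA from MC arrays. In bulk tissue, fewer cells of a type and less RNA per cell cannot be told apart. The part of these cell types in the Rpl7l1 and Rps27l differences was not tested.

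At E18.5, 4 days after the last dose, no ribosomal protein gene passed the test in any of the 6 drug comparisons. In the forebrain VPA changed 2.16% of genes against MC and VPM 0%, and VPA against VPM 0.53%, with 3, 1 and 2 of the 45 genes at an unadjusted p under 0.05 (limma). The genes with the smallest p for VPA minus MC, which did not pass, were Rpl27a (-0.28, adjusted p = 0.084), Rpl7l1 (-0.19, 0.11) and Rps27l (-0.19, 0.142). Rpl27a lies beside the peptide exit tunnel of the large subunit. Its signals in the forebrain were 735, 907 and 837 in VPA, 842, 870 and 889 in VPM and 968, 1043 and 990 in MC embryos, with both drug groups under MC. The median over the 45 genes was -0.01 for VPA and -0.02 for VPM, and 37 and 39 of the 45 intervals lay within 1.2-fold.

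Whether a drug effect differed between E14.5 telencephalon and E18.5 forebrain was tested directly in 1 fit over 27 embryonic arrays and 12024 genes. For VPA, 2 of the 45 genes had a higher effect at E14.5 and none a lower one, where 19.6% of all genes were higher and 18.4% lower. They were Rps27l, with a difference of effects of 0.30 (SE 0.09, adjusted p = 0.0109, limma), and Rpl27a, at 0.34 (SE 0.12, adjusted p = 0.0356). For VPM none was higher and 1 lower, where 1.97% of all genes were higher and 0.898% lower, and this was Rps27l again, at -0.33 (SE 0.09, adjusted p = 0.0462). The Rps27l difference for VPA kept its call with any array left out but lost it with the values as deposited (0.30, adjusted p = 0.598), and the other differences lost theirs on leaving out at least 1 array. In the forebrain the choroid plexus genes summed to 515 to 4828 in VPA, 20296 to 24208 in VPM and 17917 to 25604 in MC embryos, and the cycling markers to 4063 to 4530, 5319 to 5359 and 5514 to 5612 in the same order. The part of these cells in the differences was not tested.

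In the E18.5 hippocampus VPA called 0% of all genes against MC and 0% against VPM, and VPM 0.00867% against MC, so no ribosomal protein gene passed (limma). On the trimmed-mean scale 41 of 45 were lower in VPA than in MC, with a median of -0.13 (all genes -0.01), and 16 had an unadjusted p under 0.05. All 3 VPA arrays lay under all 3 MC arrays for 23 of the genes, against 10.3% of all genes. Against VPM, 42 of 45 were lower in VPA, with a median of -0.14 and 14 genes separate, against 10.5% of all genes, and 20 had an unadjusted p under 0.05. These comparisons share the VPA arrays, and the genes move together, so the counts do not add up as separate evidence. The counts by direction and by unadjusted p have no share of all genes beside them on this scale. They are therefore not read as a difference of the family.

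Rpl22l1, the paralog of Rpl22, had the smallest p for VPA minus MC. It gave 7881, 7865 and 7533 in VPA, 8136, 8276 and 8074 in VPM and 8936, 8970 and 8715 in MC hippocampus. All VPA arrays lay under all others, and VPA minus MC was -0.19 (SE 0.04, adjusted p = 0.159). Rps18 (-0.20, 0.178) and Rps4l (-0.32, 0.217) also did not pass.

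The direction of these differences depended on the scaling of whole arrays. With the values as deposited, 33 of the genes were higher and 10 lower in VPA, with a median of 0.03 beside 0.15 for all genes, of which 88.8% were higher. After quantile normalization 32 were lower, with a median of -0.02. The trimmed mean of the deposited arrays ran from 242.7 to 322.7 in VPA and from 229.8 to 279.8 in MC hippocampus. The radial glia markers summed to 31482 to 32378 in VPA and 35657 to 38174 in MC samples, and the choroid plexus genes to 22670 to 27121 in VPA and 1628 to 29986 in MC samples. Their part in these differences was not tested.

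In adult offspring of VPA-treated dams no gene of the 45 passed (limma), where 0% of all genes were called in adult hippocampus, 0.00735% in adult cortex and 0% at P84. In adult hippocampus 39 of 45 were higher in VPA than in MC, with a median of 0.10, 16 at an unadjusted p under 0.05 and 16 separate (8.23% of all genes). In adult cortex 40 were higher, with a median of 0.08, 2 at an unadjusted p under 0.05 and 9 separate (8.33%). At P84 41 were higher, with a median of 0.07, 3 at an unadjusted p under 0.05 and 1 separate (1.29%). The genes move together, and the counts by direction and by unadjusted p have no share of all genes beside them. No difference of the family is read from them.

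Rpl13a had the smallest p in adult hippocampus (0.14, adjusted p = 0.367) and Rpl11 at P84 (0.15, 0.902). Rplp2 gave 7610, 7846 and 8048 in VPA and 6729, 7380 and 7339 in MC hippocampus, where all VPA arrays lay above all MC arrays, and 0.13 for the difference (interval 0.04 to 0.23). After quantile normalization 33 of the genes were higher in adult hippocampus, 27 in cortex and 28 at P84, with medians of 0.04, 0.03 and 0.01. With the values as deposited, 35 genes were higher and 9 lower in adult hippocampus, 15 higher and 29 lower in cortex, and 1 higher and 43 lower at P84, where 4.72% of all genes were higher. At P84 the deposited trimmed means ran from 291.8 to 323.7 in VPA and from 322.3 to 419.4 in MC samples.

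No gene of the 45 passed the test for voluntary running. It called 0% of genes in MC hippocampus and 0.0147% in MC cortex, and 0% in both regions of VPA mice (limma), with 1, 5, 7 and 1 of the 45 at an unadjusted p under 0.05 for MC hippocampus, MC cortex, VPA hippocampus and VPA cortex. The medians were 0.02 and 0.06 for MC+RW minus MC in hippocampus and cortex, and -0.06 and -0.02 for VPA+RW minus VPA. In VPA hippocampus 40 of 45 were lower with the wheel and 11 were separate, against 7.66% of all genes. Rps28, a small protein of the 40S head, had the smallest p in MC cortex (0.19, adjusted p = 0.253). On leaving out the third MC+RW cortex array, 3 of the 45 genes were called there, all higher with the wheel. In that setting 0.98% of all genes were called. Between VPA+RW and MC+RW, 0% of genes in hippocampus and 0.022% in cortex were called, and none of the 45. The VPA by running interaction called 0% in both regions, with medians of -0.08 and -0.09, and 3 and 1 of the 45 genes at an unadjusted p under 0.05. Here too the counts by direction and by unadjusted p stand without the share of all genes and are not read as a difference of the family.

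By far the largest differences among these genes lay between ages, followed here in vehicle animals alone in 1 fit over 19 MC arrays and 14046 genes. Between E14.5 telencephalon and E18.5 forebrain, 2 of the 45 were higher and 36 lower at E18.5, where 30.2% of all genes rose and 23.9% fell. The median was -0.37, against 0.05 for all genes. The largest falls were those of Rps27l (-0.76, SE 0.08), Rpl7l1 (-0.57), Rpl27 (-0.56), Rpl22 (-0.55), Rps9 (-0.55), Rps3a1 (-0.54), Rps25 (-0.50) and Rps6 (-0.48). Rps27l gave 2674, 2819 and 2626 at E18.5, against 4194, 5129 and 4496 at E14.5, with no overlap.

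The 2 rises were those of Rpl27a (0.60, SE 0.11) and Rpl37 (0.41, SE 0.07). A brighter shared probe set of Rpl27a gave -0.33, and brighter ones of Rpl37 gave 0.02 and -0.31. The direction of this embryonic comparison rested on the scaling: quantile normalization left 8 up and 17 down with a median of -0.09, and the values as deposited gave 7 up and none down, with a median of 0.07 where all genes shifted by 0.41. Relative to all genes the members' median was lower in each of the 3 scalings. Tissue also differed, telencephalon against forebrain, and stage and dissection cannot be told apart.

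From late embryo to adult the messages fell by about 1 log2 unit in both regions. In adult cortex against E18.5 forebrain, 41 of 45 fell and 3 rose, where 36.1% of all genes fell and 44.8% rose, and the median was -1.02 against 0.14 for all genes. In adult against E18.5 hippocampus, 42 fell and 3 rose (36.8% and 44.6% of all genes), with a median of -1.06. In P84 against E18.5 hippocampus, 41 fell and 3 rose (37.7% and 45.2%), with a median of -0.95. For the 41, 42 and 41 genes called lower, no adult array reached the level of any embryonic one. Over all genes, called or not, this held for 37% in each comparison, near the shares called lower. Separation of the groups therefore adds little to the calls. The comparison of regions is loose for cortex, which is set against whole forebrain.

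The stalk protein gene Rplp0 fell most in cortex. It gave 5306, 4781 and 4894 in adult cortex, against 18179, 18334 and 19633 in E18.5 forebrain. The groups were far apart, and the difference was -1.91 (SE 0.06, adjusted p = 3.06e-15, limma). In hippocampus it gave 5453, 5241 and 5610 in adults and 5814, 6190, 6381 and 6369 at P84, against 19694, 19751 and 21311 at E18.5. Those differences were -1.90 and -1.71. Rplp2 fell by 1.42 in cortex.

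Rps9, which sits in the shoulder of the small subunit, gave 3701, 3606 and 3659 in adult cortex, against 12799, 13508 and 14768 in E18.5 forebrain. Its difference was -1.90 (SE 0.07), and -2.01 in adult hippocampus. Dim probe sets without a suffix for shared sequence went the other way for Rps9 in hippocampus (0.85) and for Rpl35 (1.72 in cortex). Rpl27a (-1.83), Rpl14 (-1.78), Rps4l (-1.74), Rpl35 (-1.68), Rps26 (-1.63) and Rps19 (-1.52) followed in cortex. In hippocampus Rpl35 (-1.80), Rps19 (-1.72), Rpl14 (-1.70), Rps26 (-1.65) and Rps27l (-1.65) stood beside them, and at P84 Rpl14 fell by 2.06 and Rpl8 by 1.54.

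The falls were not alike in size. Rps29, a zinc-binding protein of the small subunit, gave 18245, 16414 and 17042 in adult cortex, against 21892, 22562 and 24655 in E18.5 forebrain, a difference of -0.42 (SE 0.08). Rps25 (-0.50), Rpl22l1 (-0.59) and Rps24 (-0.60) also fell little. Rps29 had the highest mean signal of the 48 genes, and the part of saturation in its small difference was not tested. Among the other paralogs Rpl22 fell by 1.26, Rpl7l1 by 1.13 against 1.07 for Rpl7, and Rps4x by 1.12.

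**Figure D4:**
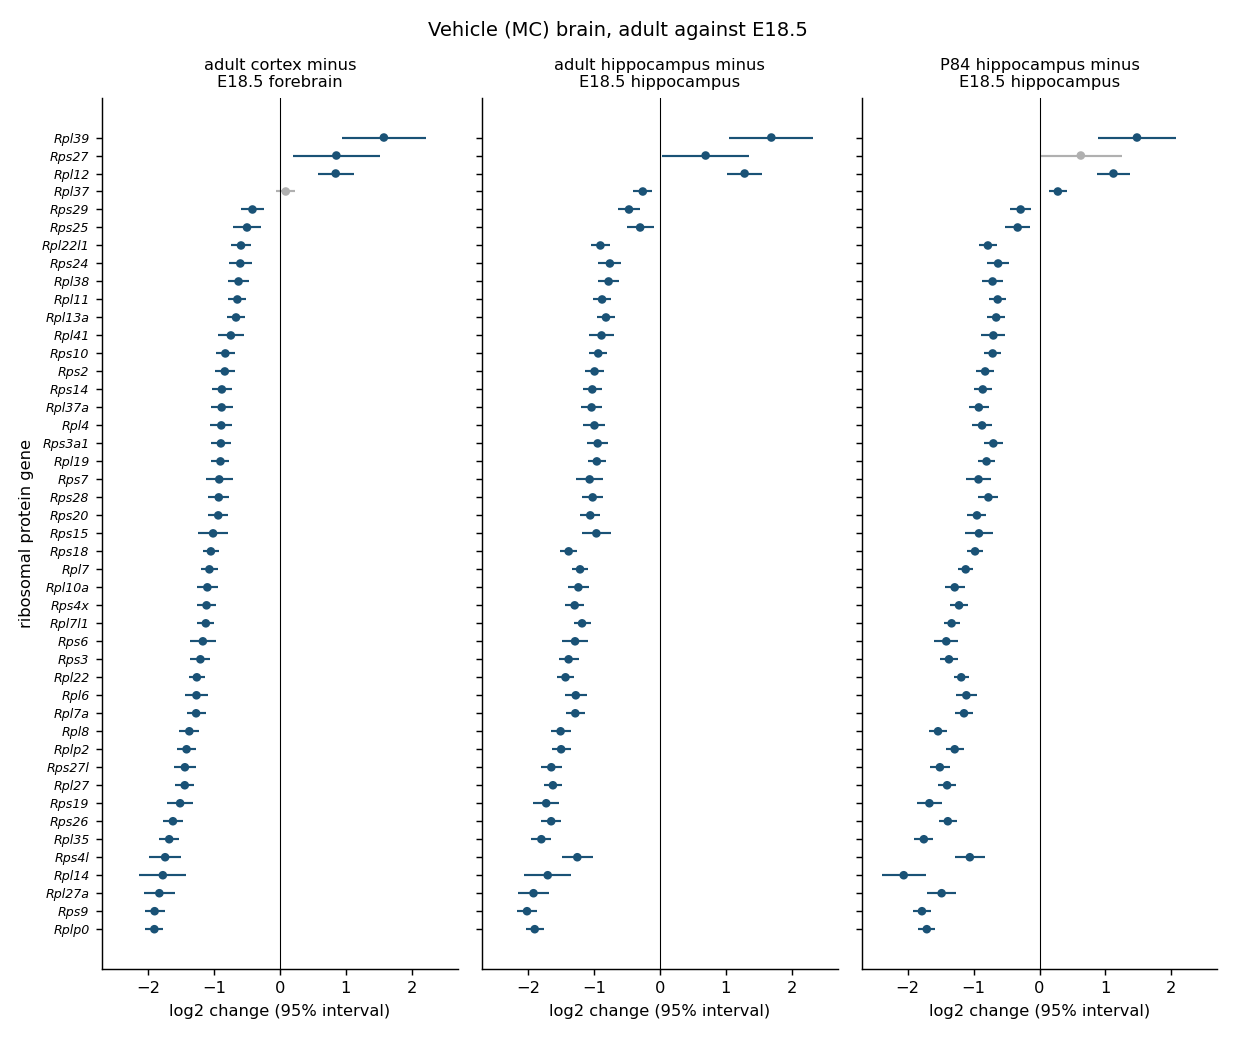
Log2 change of each of the 45 ribosomal protein genes between adult and E18.5 brain in MC animals (points; lines, 95% intervals; grey, did not pass the adjusted threshold), from left to right adult cortex minus E18.5 forebrain, adult hippocampus minus E18.5 hippocampus and P84 hippocampus minus E18.5 hippocampus. Most genes lie below 0 in all 3 panels, and Rpl39, Rps27 and Rpl12 lie above it, with Rps27 not passing at P84. Rpl37 lies above 0 in the cortex panel (0.09), where it did not pass, and at P84, where it passed.

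The 3 genes that stood higher in adult cortex were Rpl39 (1.58, SE 0.30), a short protein lining the exit tunnel, Rps27 (0.85, SE 0.31, adjusted p = 0.0182) and Rpl12 (0.84, SE 0.13). Their single-symbol probe sets were dim. Rpl39 gave 383, 473 and 623 in adult cortex, against 127, 165 and 204 in E18.5 forebrain, with no overlap. Rpl12 gave 372, 447 and 373, against 208, 251 and 205, also without overlap. Rps27 gave 254, 618 and 287 in adult cortex, against 187, 179 and 227 in forebrain, and the call rested on the second cortex array, without which the difference was 0.46 (adjusted p = 0.163). In hippocampus the 3 higher genes were Rpl39 (1.69), Rpl12 (1.29) and Rps27 (0.70, adjusted p = 0.049), the last lost on leaving out 4 of the 6 arrays and in 5 of 7 other settings (adjusted p up to 0.475). At P84 they were Rpl39 (1.48), Rpl12 (1.12) and Rpl37 (0.28, SE 0.06), while Rps27 did not pass (0.63, adjusted p = 0.0563).

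Brighter probe sets that these genes share with pseudogenes or retrogenes went the other way. The Rpl39 set shared with Gm32211 gave -0.81 in cortex, the Rpl12 set shared with Gm11425 -1.20, and the Rps27 set shared with Rps27rt -1.06. Rps16, too dim on its own probe set, gave -1.21 and -0.95 on shared ones. Over all probe sets of the 48 genes not used above, 40 of 49 single-symbol ones fell and 5 rose in cortex, and 86 of 101 shared ones fell and 7 rose, where 30.8% of all probe sets fell and 49.6% rose. The signals of a gene and its pseudogene cannot be told apart on a shared probe set.

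The fall between E18.5 and adult held its direction under each scaling. In cortex, hippocampus and P84 hippocampus the medians were -0.69, -0.63 and -0.59 after quantile normalization (all genes -0.08, -0.07 and -0.08) and -0.83, -0.73 and -0.49 with the values as deposited (all genes 0.24, 0.37 and 0.50). Bright genes in general changed as well: 87.3% of 1264 other bright genes were called in cortex, 411 up and 693 down. The labels give no batch, so age and any batch that went with it cannot be told apart. P84 over adult MC hippocampus, of nearly the same age, gave 12 genes up and none down (4.16% and 5.68% of all genes), with a median of 0.14. The largest were Rpl37 (0.54, SE 0.06), Rpl27a (0.43) and Rps18 (0.40). The count was 5 to 7 without any 1 of 6 of the 7 arrays, 15 without the first P84 array, and 3 with the values as deposited or only probe sets without a shared-sequence suffix.

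**Figure D5:**
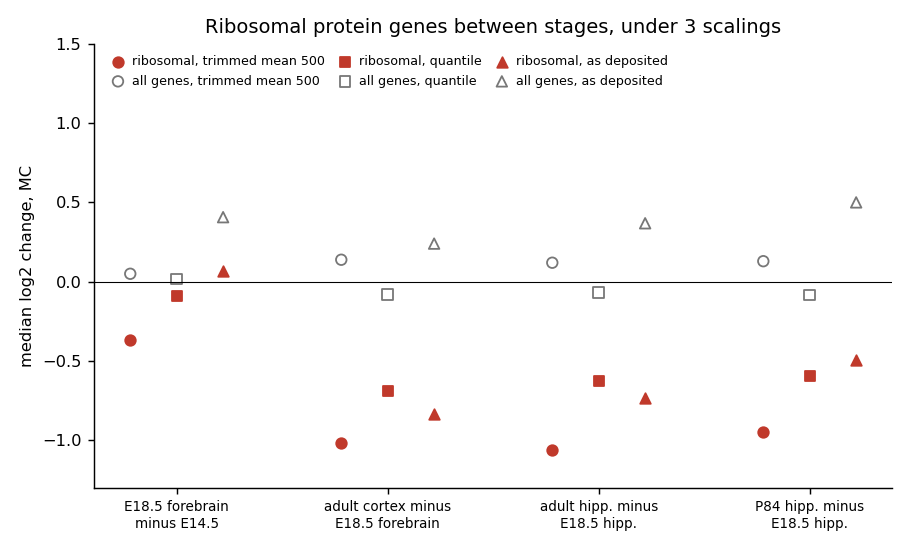
Median log2 change between stages in MC animals for ribosomal protein genes (filled) and all genes tested (open) under 3 scalings: trimmed mean (circles), quantile (squares) and values as deposited (triangles). The ribosomal medians from E18.5 to adult stay below 0 with each scaling, and that from E14.5 to E18.5 does not.

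Cell make-up differed greatly between these ages. The 7 cycling markers summed to 627 to 771 in adult cortex, against 5514 to 5612 in E18.5 forebrain, and the 7 radial glia markers to 5528 to 6090, against 29034 to 31796. Oligodendrocyte markers summed to 25636 to 30040, against 2852 to 3127 in forebrain, where 2 of the 5 genes were at the floor, and astrocyte markers to 27823 to 31304, against 6908 to 8158. Their part in the fall was not tested.

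Lists of related genes in adult cortex are read against the 36.1% of all genes that fell and the 44.8% that rose. Of 35 ribosome biogenesis genes 30 fell and 1 rose, with Rrp9 at -3.83, Npm1 at -1.43 and Ncl at -0.89. Of 31 translation factors 27 fell and 1 rose, led by Eif3l (-1.66), Pabpc1 (-1.64) and Eif3d (-1.42). Rpsa (-1.49) and Fau (-0.89) both fell. Of 76 mitochondrial ribosomal protein genes 46 fell and 9 rose, with a median of -0.27. Of 24 mTORC1 and Myc regulators 9 fell and 7 rose, with a median of 0.04. Among them were Mycn, a Myc family factor of progenitors, at -2.89 and Deptor, an mTOR inhibitor, at 3.12.

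Between regions the genes differed less. In the E18.5 hippocampus against forebrain 12 were higher and 1 lower, where 9.8% of all genes rose and 10.8% fell, with a median of 0.16. Rps6 (0.41), Rpl22l1 (0.40), Rps27l (0.36), Rpl37 (0.33), Rps18 (0.32) and Rpl11 (0.31) were highest, and Rpl12 fell by 0.47. This too depended on scaling, with 7 up after quantile normalization and none up as deposited, where the medians were 0.04 and -0.05. The count of 13 called fell to 7 without forebrain replicate 1 and to 8 without forebrain replicate 2 or hippocampus replicate 2 or 3, and was 19 without forebrain replicate 3. Astrocyte markers summed to 12380 to 13660 in hippocampus and 6908 to 8158 in forebrain, and markers of meninges and fibroblasts to 5347 to 9038 and 1774 to 5070, and their part was not tested. In adult hippocampus against cortex 2 rose and none fell (7.72% and 8.66% of all genes). Rps4l, an autosomal paralog of X-linked Rps4x that RefSeq lists as a transcribed pseudogene, gave 821, 888 and 776 in hippocampus, against 477, 551 and 525 in cortex, without overlap (0.68, SE 0.11, adjusted p = 0.00022). Rps4x gave 0.07 (interval -0.07 to 0.21). The other gene was Rps6 (0.30, adjusted p = 0.0325), whose call was lost on leaving out 4 of the 6 arrays (adjusted p up to 0.172), with the values as deposited (0.24, 0.689) and with the mean over its probe sets (0.08, 0.743).

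Across the 19 group means most of the genes traced the same profile. As a description over groups that share ages and tissues, 40 of 45 correlated at more than 0.9 with the median of the others, and the median r was 0.99. Rplp2 and Rps19 stood highest (0.999 each), followed by Rpl19 (0.998). The lowest were Rpl12 (-0.956), Rpl39 (-0.914), Rps27 (-0.911) and Rpl37 (-0.492), the first 3 of which were on dim probe sets, and then Rps4l (0.898) and Rps25 (0.906). Of 14479 genes compared, those outside the family whose group means were most like the median of all 48 genes were Actg1 (r = 0.998), Cct2 (0.997) and Ift46 (0.997).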

How the data were processed

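Total RNA was labelled with biotin and hybridised to 1 array per sample, per the labels' protocols. The deposited values are linear intensities that the authors made with GCOS, per the submitters' processing notes; the sources used here do not give its version, algorithm or scaling. Each array was rescaled to a 2% trimmed mean of 500, floored at 32 and taken to log2. Of 45101 probe sets, 34958 had 1 symbol, 932 several and 9211 none. Testing needed a scaled signal of 100 or more on at least 3 arrays of the fit (4 at P84).

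Differences were fitted with limma 3.58.1 in R 4.3.3, each group having its own term and all arrays of a set sharing the variance, eBayes with trend, and Benjamini-Hochberg adjustment over all genes tested. Vehicle comparisons used 1 fit over 19 arrays, and the E14.5 and E18.5 drug effects were compared in 1 fit over 27 arrays. The procedure was tested on simulated data. For arrays, their number limits the precision. Members and lists were chosen with earlier results of these data known. Genes were named by rule: per comparison up to 8 rises and 8 falls that passed, or the 3 smallest p where none did, the stalk genes, paralogs with their partners, Rps6, Rpl5, Rpl11, Rps19, Rps27a and Rps14, the extremes of profile correlation, and up to 3 genes of a related list. The genes named for their small falls, for shared probe sets or for their start sequence were chosen after values were seen. Samples of the same number did not deviate together in every pair of any set (r from -0.283 to 0.383), so numbers were not used to pair them. Each of these sets held a single tissue and age, so numbers were not compared between regions in this way. The main fit treats the regions as separate samples. The alternatives tried were quantile normalization, values as deposited, 32 added to each signal before log2 instead of a floor, no filter, the mean over a gene's probe sets, probe sets without a suffix, a replicate block, inferred sex in embryos and leaving out each array. Embryos of both sexes were present by Xist, on 5 of 9 E14.5, 3 of 9 E18.5 hippocampus and 4 of 9 E18.5 forebrain arrays.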

Additional observations from a re-analysis of the deposited data

Results flagged for a closer look

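The VPA effect on Rps27l differed between E14.5 telencephalon and E18.5 forebrain. VPA minus MC was 0.11 at E14.5 and -0.19 at E18.5, and the difference of the effects was 0.30 (adjusted p = 0.0109, limma). The forebrain signals were 2220, 2577 and 2337 in VPA, against 2674, 2819 and 2626 in MC embryos. The VPM effect on Rps27l also differed, at -0.33 (adjusted p = 0.0462), with VPM minus MC at -0.32 at E14.5 and 0.02 at E18.5. The VPM difference lost its call on leaving out 10 of the 12 arrays in turn (adjusted p 0.0206 to 0.127), while the VPA difference kept it on leaving out any (0.0011 to 0.0427) and lost it with the values as deposited (0.598).

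The VPA effect on Rpl27a differed by 0.34 (adjusted p = 0.0356), at 0.06 at E14.5 and -0.28 at E18.5, and lost its call on leaving out 7 of the 12 arrays (adjusted p 0.0162 to 0.122). These were the 3 differences called among the 45 genes in the 2 comparisons. In the P84 hippocampus of MC mice, 1 array stood apart for Rpl39, at 385 against 441, 443 and 447, a gap of 0.904 of the whole range, above Dixon's critical value for 4 samples. Of 12 groups of values tested in this way this was 1, and chance flags about 1 in 20.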

How the results depend on the processing

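Counts below are of ribosomal protein genes called. The E14.5 VPA call of 1 became 4 after quantile normalization (3 up and 1 down, so the majority turned), 3 with the mean over a gene's probe sets and 3 with the replicate block. The VPM count of 2 became 1 after quantile normalization, without the filter on low values, with probe sets without a suffix, with the replicate block and with inferred sex, and 0 with the values as deposited. VPA against VPM went to 9, 1 and 2 of 4 with quantile normalization, values as deposited and inferred sex. The E18.5 forebrain against E14.5 count of 38 became 25, 7 (reversed) and 12 with quantile normalization, values as deposited and probe sets without a suffix. The last setting kept 20 of the 45 genes, and its counts of 18, 20, 19, 6 and 3 stand for 44 (adult cortex), 45 (adult hippocampus), 44 (P84 against E18.5), 13 (E18.5 hippocampus against forebrain) and 12 (P84 against adult hippocampus). By direction these were 5 up and 13 down, 7 up and 13 down, 6 up and 13 down, 3 up and 3 down, and 3 up and 0 down. A larger part of the genes thus rose from E18.5 to adult than in the main run. Of the 48 probe sets used in the main run, 16 had no such suffix. The count of 13 became 8 after quantile normalization and 1 (reversed) as deposited, and the count of 12 became 3 as deposited. The count of 2 in adult hippocampus against cortex became 1 as deposited and with the mean over probe sets. The difference of VPA effects went to 0 as deposited and to 1 without the filter, with probe sets without a suffix and with inferred sex, and the difference of VPM effects to 0 under these 4 settings and after quantile normalization.

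Single genes turned round with the mean over probe sets between E14.5 and E18.5 (Rpl27 at 0.0034, Rps6 at 0.18) and with probe sets without a suffix between E18.5 and adult brain (Rpl35 at 1.72 in cortex, 1.91 in hippocampus and 1.45 at P84, and Rps9 at 0.85 in hippocampus and 0.75 at P84), where those probe sets were dim. Leaving out 1 array gave 1 to 3 (E14.5 VPA), 0 to 2 (VPM), 1 to 3 (VPA against VPM), 0 to 3 (adult cortex MC+RW), 33 to 38, 43 to 44, 43 to 45 and 44 to 45 (the 4 comparisons of stages in the order above), 7 to 19 (E18.5 regions), 1 to 2 (adult regions), 5 to 15 (P84 against adult), 1 to 3 and 0 to 1 (differences of VPA and VPM effects), and 0 in the other 16 comparisons. The VPM count was 0 without the third VPM array, the E18.5 regional count 7 without the first forebrain array and 19 without the third, and the P84 count 5 without the second adult MC hippocampus array. Same-numbered arrays did not deviate together in every pair of any set of a single tissue, and were not compared in this way between regions. The replicate block moved no other count by more than the limit of 1.5 times.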
